A study of Mus musculus with 16 samples.

Results

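The transcripts of 10 genes of the interleukin-1 (IL-1) and interleukin-36 (IL-36) cytokine system were followed in inflamed mouse ear skin. They were taken by gene symbol from a table of 45777 genes: the cytokine genes Il1a, Il1b, Il36a, Il36g and Il18, the antagonist genes Il1rn and Il36rn, the decoy receptor gene Il1r2, and the receptor genes Il1r1 and Il1rl2. Of these, 7 were listed under these symbols and 3 under older ones, matched by gene ID through RefSeq synonyms (Il36a as Il1f6, Il36g as Il1f9, Il36rn as Il1f5). All 10 passed the filter on low counts.

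The skin came from wild-type C57BL/6 mice whose ears were painted with MC903 (calcipotriol, a vitamin D analogue that provokes dermatitis resembling atopic dermatitis), 50 µM in 20 µL on both ears each day for 10 days. One group of 3 libraries came from mice that also received an antibody against oncostatin M (anti-OSM), 20 µg per mouse into the skin every other day. The other 3 came from mice given an antibody against the neutrophil surface protein Ly6G (anti-Ly6G), 200 µg per mouse into the peritoneum 2 days before MC903 and 1 and 4 days after it. Antibody, route and schedule differed together, no isotype antibody is named for either group, and no age is given. The labels also list 5 control and 5 MC903 libraries, which were not analysed here, so which antibody group moved cannot be told. Throughout, "higher", "lower", "rose" and "fell" describe anti-OSM relative to anti-Ly6G.

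IL-1α and IL-1β are agonists of the receptor encoded by Il1r1, which signals with the accessory protein of Il1rap through MyD88 and NF-κB. The protein of Il1rn occupies that receptor without signalling, and the decoy encoded by Il1r2 binds IL-1 without passing a signal on. IL-36α and IL-36γ act in the same way on the receptor encoded by Il1rl2 and are opposed by the IL-36 receptor antagonist of Il36rn. Keratinocytes are a main source of IL-36 cytokines in skin. Most of these cytokines are made as precursors that proteases must cut, with caspase-1 of the inflammasome cutting IL-1β and IL-18.

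Total read counts were 52163179 to 64122588 per library. The lowest count of any of the 10 genes in any library was 334 (Il36a, anti-Ly6G replicate 2), so none of the 10 rested on few reads. The skin label was borne out by keratinocyte genes such as Krt14 (mean TPM, transcript abundance scaled for length and to a common total, of 6506 with anti-OSM and 9671 with anti-Ly6G). Skeletal muscle and cartilage transcripts of the ear were present too. Of their tested markers 9 of 10 and 7 of 9 were called lower with anti-OSM, against 6.27% of all tested genes. On the first principal component, which held 43.6% of the variance, the anti-OSM libraries scored -34.7 to -26.6 and the anti-Ly6G libraries 38.6, 39.3 and, for replicate 3, 14.9. In whole skin, fewer cells of a type and less RNA per cell cannot be told apart.

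Of the 10 genes, 3 were higher with anti-OSM, 0 were lower and 7 did not pass (edgeR's quasi-likelihood test, adjusted p under 0.05 over 19915 tested genes). The 3 were Il36a, Il18 and Il36rn. Among all tested genes 5.81% were called higher and 6.27% lower, or 12.1% in either direction. The median log2 fold change of the 10 was 0.12, against 0.0068 over all tested genes. By scaled counts the groups did not overlap for 3 of the 10 genes, all with anti-OSM above, against 35.0% of all tested genes in either direction. Leaving out 1 library kept Il18 among the calls each time, but it was the 1 called gene when the library left out was anti-OSM replicate 2, anti-OSM replicate 3, anti-Ly6G replicate 1 or anti-Ly6G replicate 2.

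**Figure D1:**
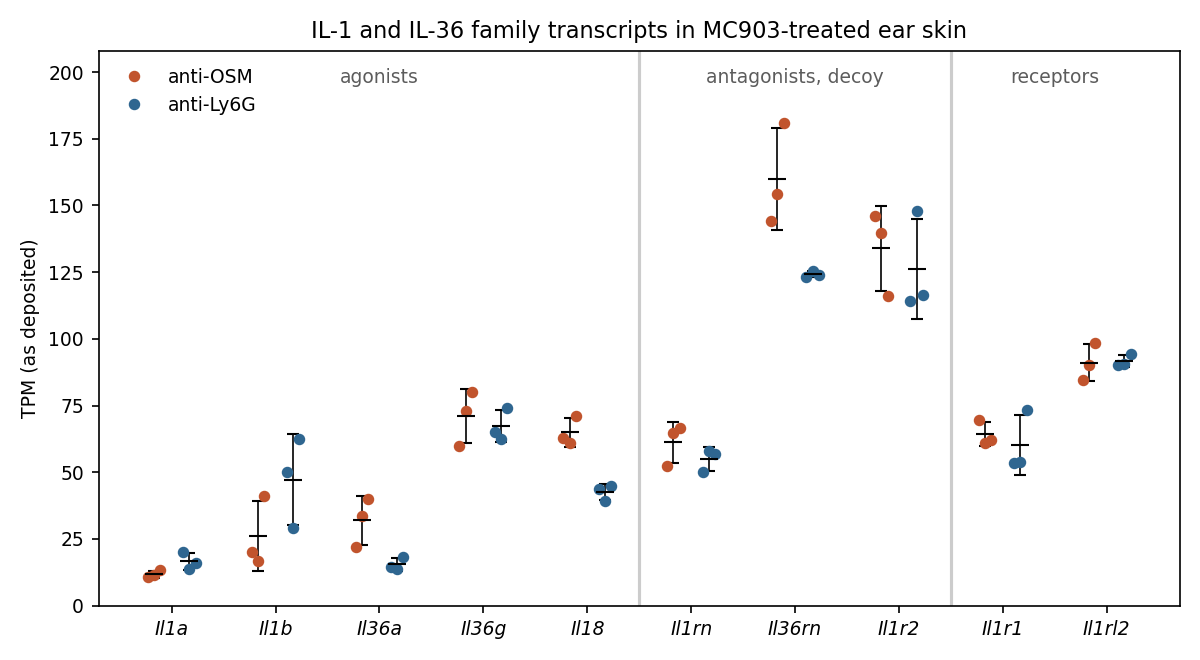
Deposited TPM (vertical axis) of the 10 genes in each of the 6 libraries, with anti-OSM in orange and anti-Ly6G in blue, replicates 1 to 3 from left to right within a group; black marks are the mean and SD of 3 libraries. The groups are apart for Il36a, Il18 and Il36rn, with anti-OSM above, and narrowly for Il1a, with anti-OSM below, and lie close together for the receptor genes Il1r1 and Il1rl2.

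Levels can be set side by side between genes in TPM, which is per transcript length. Averaged over the 6 libraries, Il36rn was the most abundant of the 10 at 142 TPM, followed by Il1r2 (130), Il1rl2 (91.4), Il36g (69.1), Il1r1 (62.3), Il1rn (58.1), Il18 (53.8), Il1b (36.7), Il36a (23.8) and Il1a (14.2). The order was fixed in all 6 libraries only between Il1r2 and Il1rl2 and between Il1rl2 and Il36g. Every other pair of neighbours changed places in at least 1 library, so their order did not exceed the spread. The order also differed between the groups. With anti-Ly6G the mean of Il1r2 (126 TPM) was above that of Il36rn (124) and that of Il1b (47.3) above that of Il18 (42.6), while with anti-OSM Il18 (65.0) stood above Il1rn (61.2) and Il36a (32.0) above Il1b (26.1). The antagonist and decoy genes were above most of the agonist genes, and more tested genes had a lower TPM than Il36rn (94.97%) than was so for Il1a (55.3%).

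Il36a, which encodes the agonist IL-36α, lies on chromosome 2 (24215417 to 24225701, plus strand, GRCm38, the assembly of mm10). It was at 22.2, 33.8 and 40.1 TPM in anti-OSM replicates 1 to 3 and at 14.5, 13.8 and 18.4 TPM in the anti-Ly6G libraries. Every anti-OSM library was above every anti-Ly6G library, in TPM and in scaled counts. By scaled counts this held for 17.7% of all tested genes in that direction. The means were 32.0 ± 9.12 and 15.6 ± 2.45 TPM (SD, n = 3), and the gene was 2.09-fold higher with anti-OSM (95% interval 1.46 to 3.00, log2 fold change 1.07, SE 0.23, adjusted p = 0.0244). Its call depended on the libraries: leaving out anti-OSM replicate 2, anti-OSM replicate 3, anti-Ly6G replicate 1 or anti-Ly6G replicate 2 gave adjusted p of 0.0728 to 0.0869 and log2 fold changes of 0.86 to 1.04.

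Il36g, the gene of the second IL-36 agonist among the 10, lies 5′ of Il36a in the same cluster (chromosome 2, 24186476 to 24193567). Its level was 59.96, 72.97 and 80.02 TPM with anti-OSM and 65.1, 62.5 and 74.0 TPM with anti-Ly6G. The groups overlapped, and the log2 fold change was 0.11 (95% interval -0.17 to 0.38, adjusted p = 0.612). The third agonist gene, Il36b, which was not among the 10 and is named with its values seen, was at 81.5, 86.2 and 120 TPM with anti-OSM against 87.7, 60.3 and 78.9 TPM, and did not pass (log2 fold change 0.37, adjusted p = 0.283). Within each library Il36a stood at 0.369, 0.463 and 0.501 of the Il36g TPM with anti-OSM and at 0.223, 0.221 and 0.248 with anti-Ly6G. This ratio, chosen after the values were seen and given without a test, did not overlap between the groups.

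Il18, the gene of an IL-1 family cytokine that acts on its own receptor, lies on chromosome 9 (50554700 to 50581841, plus strand). It was at 62.9, 60.8 and 71.2 TPM with anti-OSM and at 43.6, 39.3 and 44.8 TPM with anti-Ly6G. All 3 anti-OSM libraries were above all 3 anti-Ly6G libraries, with little spread within either group (65.0 ± 5.52 and 42.6 ± 2.93 TPM, SD, n = 3). Il18 was 1.56-fold higher with anti-OSM (95% interval 1.33 to 1.84, log2 fold change 0.65, SE 0.10, adjusted p = 0.00976). It passed without each of the 6 libraries in turn (adjusted p 0.00840 to 0.0406). The opposite-strand gene Bco2 shares 515 bases with it, was itself called higher (0.63, adjusted p = 0.0459) and had 106 to 181 counts, against at least 1293 for Il18. The sources used here do not say whether counting was stranded, so reads of the 2 genes cannot be told apart where they overlap.

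The agonist genes of IL-1 itself had the 2 lowest fold changes of the 10, and neither passed. Il1a (chromosome 2, 129299609 to 129310186, minus strand) was at 10.8, 11.4 and 13.4 TPM with anti-OSM and at 20.1, 13.9 and 16.0 TPM with anti-Ly6G. The TPM ranges of the groups did not overlap, while those of scaled counts did. Its log2 fold change was -0.47 (95% interval -0.85 to -0.09), with an unadjusted p of 0.0215 and an adjusted p of 0.104 in edgeR. DESeq2 called it lower (adjusted p = 0.0439).

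Il1b (chromosome 2, 129364569 to 129371164, minus strand), the gene of the IL-1 agonist that caspase-1 matures, was at 20.3, 16.7 and 41.3 TPM with anti-OSM and at 50.3, 29.0 and 62.6 TPM with anti-Ly6G. Anti-OSM replicate 3 lay among the anti-Ly6G libraries, and the highest library of each group was 2.46 and 2.16 times its lowest. No other gene of the 10 varied as much within groups: the SD was 50.8% and 36.0% of the mean. The log2 fold change was -0.88 with a 95% interval of -1.88 to 0.12 (adjusted p = 0.218). The interval thus spans a fall beyond 3-fold (0.272 of the anti-Ly6G level) and no difference. Without anti-OSM replicate 3 the value was -1.39 (adjusted p = 0.0588), over 1.5 times as large. Without anti-OSM replicate 2 it shrank to -0.65 (adjusted p = 0.402). Over the 6 fits with 1 library left out the adjusted p was 0.0588 to 0.427, and 0 passed. The antisense genes Il1bos (17 to 39 counts) and Gm14023 (45 to 69 counts) overlap Il1b and Il1a and were far below them.

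Neutrophils carry Il1b and Il1r2 transcripts, so their markers are given beside these 2 genes. Of 17 tested neutrophil markers 0 were higher and 2 were lower (Trem1 and Padi4), and the summed level of all 21 was 436 to 594 TPM in the anti-OSM libraries against 403 to 599 TPM. The share called lower was 11.8%, against 6.27% of all tested genes. S100a8, S100a9 and Mmp9 are in this list and also among the genes that IL-1 or IL-36 can induce. The sum is therefore not a measure of neutrophils alone. Counts of the defining marker Ly6g were 3, 0 and 0 in the anti-OSM libraries against 3, 3 and 3, so no library exceeded a floor of 3 counts. Their part in the Il1b and Il1r2 values was not tested.

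Of the 2 antagonist genes, Il36rn was higher with anti-OSM and Il1rn did not pass. Il36rn (chromosome 2, 24276954 to 24282432, plus strand) was at 144, 154 and 181 TPM with anti-OSM and at 123.3, 125.5 and 123.9 TPM with anti-Ly6G. The anti-Ly6G libraries were almost level (124 ± 1.13 TPM, SD, n = 3), and all anti-OSM libraries (160 ± 19.1) were above them. The difference was 1.31-fold (95% interval of the fold 1.13 to 1.52, log2 fold change 0.39, SE 0.10, adjusted p = 0.0339). It was called without anti-OSM replicate 1 (adjusted p = 0.0402) and lost without any other single library (0.0588 to 0.0984).

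Il1rn (chromosome 2, 24336860 to 24351491, plus strand) was at 52.5, 64.6 and 66.5 TPM with anti-OSM and at 50.0, 58.1 and 56.8 TPM with anti-Ly6G. The groups overlapped, and the log2 fold change was 0.18 (95% interval -0.05 to 0.41, adjusted p = 0.280). The gene gives rise to secreted and intracellular forms of the antagonist, which a count per gene does not separate. The 4 neighbours Il36g, Il36a, Il36rn and Il1rn, all on the plus strand within 165 kb, thus had log2 fold changes of 0.11, 1.07, 0.39 and 0.18 in that order.

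Windows of 250 bases before an annotated start are shown for Il18 and Il36rn, called higher with anti-OSM, and for Il1b, whose fold change was lowest (RefSeq, GRCm38.p6). RefSeq windows were matched for 9 of the 10 genes, and Il36a, also called higher, had none. Capitals mark matches to 5 motifs searched on both strands: NF-κB as GGGA and TTCC with 2 free bases between, AP-1 as TGANTCA, C/EBP as TTGCNNAA, STAT as TTCNNNGAA and the TATA box as TATAAA.
Il18, chr9:50554450-50554699, plus strand: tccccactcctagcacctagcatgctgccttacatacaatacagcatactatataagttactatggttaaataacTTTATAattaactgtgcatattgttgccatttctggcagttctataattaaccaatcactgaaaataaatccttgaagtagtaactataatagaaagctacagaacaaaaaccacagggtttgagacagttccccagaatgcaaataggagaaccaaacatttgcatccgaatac
Il36rn, chr2:24276704-24276953, plus strand: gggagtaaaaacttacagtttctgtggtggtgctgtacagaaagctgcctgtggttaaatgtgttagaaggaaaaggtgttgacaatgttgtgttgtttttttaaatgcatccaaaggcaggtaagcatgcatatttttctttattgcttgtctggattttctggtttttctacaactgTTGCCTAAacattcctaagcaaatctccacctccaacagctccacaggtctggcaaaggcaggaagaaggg
Il1b, chr2:129371140-129371389, minus strand: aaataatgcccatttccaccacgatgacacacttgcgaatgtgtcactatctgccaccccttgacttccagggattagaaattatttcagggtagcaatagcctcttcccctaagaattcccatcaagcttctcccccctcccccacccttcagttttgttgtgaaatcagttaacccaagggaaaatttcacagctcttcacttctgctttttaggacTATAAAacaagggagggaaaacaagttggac

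Il1b holds a forward TATA box 26 to 31 bases before its start. Il1a holds one at 27 to 32 bases, with an AP-1 match at 6 to 12 bases. The Il18 match is a reverse TATA box 170 to 175 bases before the start, and that in the printed Il36rn window a C/EBP match at 64 to 71 bases. RefSeq gives Il36rn a second start, whose window (from 24277021, not printed) holds a STAT match at 90 to 98 bases. Of 32851 such windows in the RefSeq table, 12.4% held the TATA box, 9.56% the C/EBP motif, 7.02% the STAT motif, 6.75% the AP-1 motif and 1.21% the NF-κB motif. These matches describe letters, not bound sites.

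The receptor and decoy genes did not pass, with narrow intervals. Il1r1, the signalling receptor of IL-1 (chromosome 1, 40222480 to 40316201), was at 69.4, 61.1 and 62.2 TPM with anti-OSM and at 53.6, 54.0 and 73.3 TPM with anti-Ly6G. The anti-Ly6G range was set by replicate 3, which lay above all anti-OSM libraries, and the log2 fold change was 0.13 (95% interval -0.14 to 0.40, adjusted p = 0.501). Il1rl2, the IL-36 receptor gene (40324589 to 40367555), was at 84.7, 90.1 and 98.6 TPM against 90.1, 90.7 and 94.3 TPM. The difference was 0.02 on the log2 scale (adjusted p = 0.909, 95% interval -0.16 to 0.20), and its sign flipped on the log2(TPM + 1) scale (-0.011).

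Il1r2, the decoy receptor gene (chromosome 1, 40084692 to 40125230), was at 146, 140 and 116 TPM with anti-OSM and at 114, 148 and 116 TPM with anti-Ly6G. The groups covered much the same range and differed by 0.09 on the log2 scale (adjusted p = 0.626, 95% interval -0.15 to 0.33). The 3 receptor genes lie within 283 kb on chromosome 1. The highest upper bound of the 3 intervals was a 1.32-fold difference (Il1r1).

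**Figure D2:**
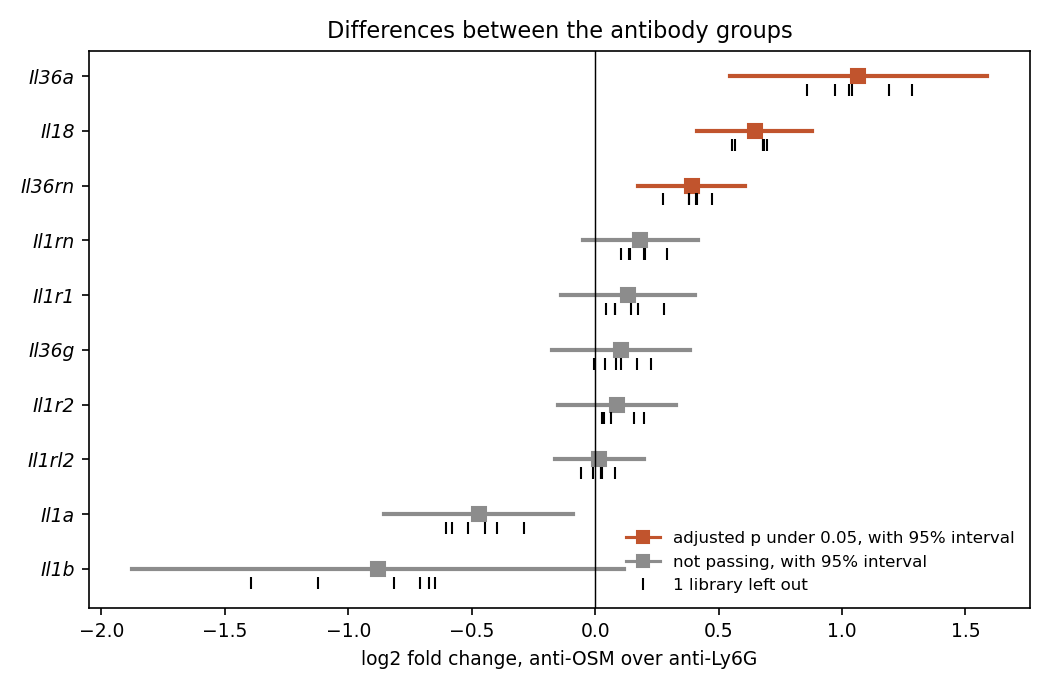
Log2 fold change of anti-OSM over anti-Ly6G (horizontal axis) for the 10 genes from the fit with all 6 libraries; bars are 95% intervals, orange marks adjusted p under 0.05 and grey a gene that did not pass, and ticks below each bar are the values with 1 library left out. With 1 library left out Il36a, Il18, Il36rn, Il1rn, Il1r1 and Il1r2 lie above 0 and Il1a and Il1b below 0 in each fit, Il36g and Il1rl2 lie on both sides, and Il1b has the widest interval, from -1.88 to 0.12.

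Ratios of antagonist to agonist within a library were described without a test. Il1rn stood at 1.69, 2.30 and 1.22 times the summed TPM of Il1a and Il1b with anti-OSM and at 0.711, 1.36 and 0.724 times with anti-Ly6G. The mean was 1.73 ± 0.542 against 0.930 ± 0.369 (SD, n = 3), and the groups overlapped through anti-OSM replicate 3 and anti-Ly6G replicate 2. In the IL-36 system the ratio of Il36rn to the sum of Il36a and Il36g was 1.76, 1.45 and 1.51 against 1.55, 1.64 and 1.34. Il36rn thus stood in a like proportion to this sum in both groups (1.57 ± 0.164 and 1.51 ± 0.154). The 2 parts of the sum did not: Il36a over Il36g had a mean of 0.445 with anti-OSM and 0.231 with anti-Ly6G, without overlap. The sum leaves out the third agonist gene, Il36b, whose mean over the 6 libraries (85.9 TPM) was above those of Il36g and Il36a. The ratio is therefore not one to all IL-36 agonist transcripts. The ratio of the decoy gene Il1r2 to Il1r1 was 2.09 ± 0.210 and 2.15 ± 0.575, with the groups overlapping.

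**Figure D3:**
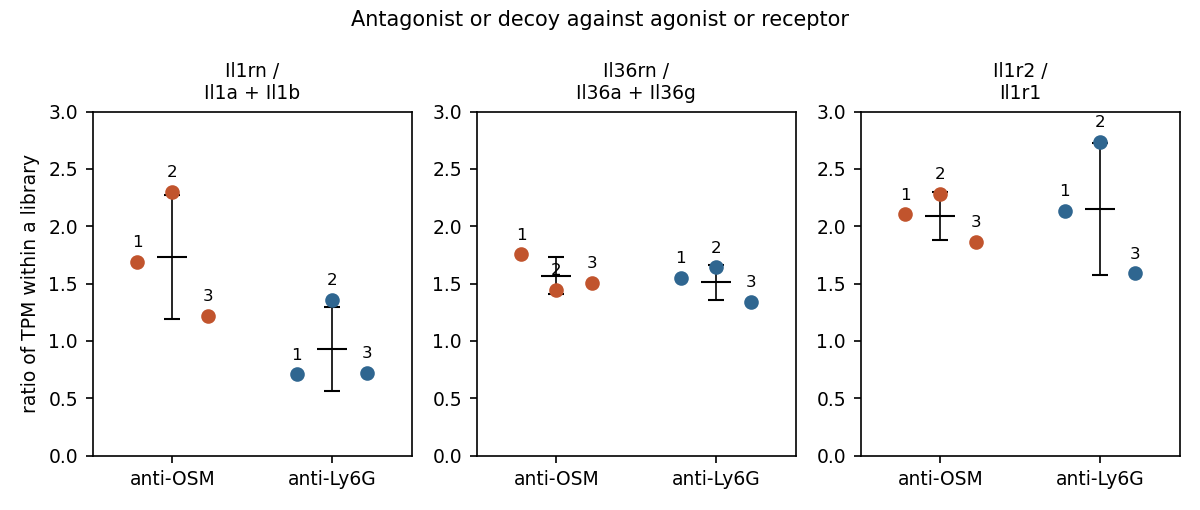
Ratio of TPM within each library (vertical axis) for Il1rn over Il1a plus Il1b, Il36rn over Il36a plus Il36g, and Il1r2 over Il1r1; points are libraries numbered by replicate, and black marks are the mean and SD of 3. The Il1rn ratio has the higher mean with anti-OSM (1.73 against 0.930) with overlap, and the other 2 ratios have means close together.

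Cell type markers moved between the groups beside the 3 higher genes. Their counts stand against 5.81% of all tested genes called higher and 6.27% called lower. Of 12 keratinocyte markers 1 was higher (Ivl) and 1 lower (Krt14), and their summed level was 26703 to 30412 TPM in the anti-OSM libraries against 29992 to 37856 TPM. Markers of stressed keratinocytes, such as Krt6a and Sprr1a, went the other way from Il36a, Il36rn and Il18: 8 of 12 were lower, with sums of 3681 to 6577 TPM against 9336 to 13140. Of 18 monocyte and macrophage markers 4 were higher (3977 to 4600 against 2298 to 3727 TPM), and of 16 dendritic and Langerhans cell markers 11 were higher (4707 to 5804 against 3040 to 4137 TPM). Fibroblast markers (6 of 10 higher, 6165 to 6763 against 3901 to 5306 TPM) and eosinophil markers (4 of 9 tested higher, 247 to 321 against 102 to 172 TPM) moved the same way, and T cell markers had 2 of 14 higher (227 to 256 against 193 to 225 TPM). Each marker of these 7 lists exceeded 3 counts in at least 1 library. Their part in the Il36a, Il18 and Il36rn values was not tested.

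Among the 9 tested genes of the other IL-1 family ligands and receptors, 0 were higher, 1 was lower and 8 did not pass (median log2 fold change 0.15). Over all tested genes 5.81% were called higher and 6.27% lower. The lower gene was Il33, which encodes an alarmin of the family that acts on the receptor of Il1rl1. It was at 61.7, 63.4 and 71.1 TPM with anti-OSM and at 120, 92.5 and 136 TPM with anti-Ly6G (log2 fold change -0.81, adjusted p = 0.0151), opposite in direction to Il18. Leaving out anti-OSM replicate 1, anti-OSM replicate 2 or anti-Ly6G replicate 1 ended that call (adjusted p up to 0.0603). Il1rap, the co-receptor gene shared by the IL-1, IL-36 and IL-33 receptors, was at 27.4, 28.0 and 28.4 TPM against 23.5, 26.0 and 27.5 TPM (0.15, adjusted p = 0.190). Il1rl1 (0.58, adjusted p = 0.0692) and the inhibitory receptor gene Sigirr (0.29, adjusted p = 0.160) did not pass. The IL-18 receptor gene Il18r1 (-0.27, adjusted p = 0.326) and the gene of the IL-18 binding protein Il18bp (-0.12, adjusted p = 0.754) did not pass either; these 2 were named after their values were seen.

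Genes that process these cytokines were called in both directions. Of 24 tested inflammasome, gasdermin and protease genes, 8 were higher, 2 were lower and 14 did not pass, with a median log2 fold change of 0.40. The shares called higher and lower were 33.3% and 8.33%, against 5.81% and 6.27% of all tested genes. The sensor genes Nlrc4 (1.00, adjusted p = 0.0153), Aim2 (0.74, adjusted p = 0.0197), Nlrp1a (0.74, adjusted p = 0.0260) and Nlrp10 (0.29, adjusted p = 0.0472) were higher. Levels of Nlrc4 and Nlrp1a were low, with means of 1.30 and 1.17 TPM over the 6 libraries. The gene of the inflammasome adaptor ASC, Pycard, was at 82.4, 93.4 and 93.9 TPM with anti-OSM and at 67.3, 74.0 and 76.9 TPM with anti-Ly6G (0.33, adjusted p = 0.0308). P2rx7, an ATP-gated channel gene upstream of the NLRP3 inflammasome, was at 26.6, 23.7 and 25.3 TPM against 15.7, 16.3 and 19.1 TPM (0.58, adjusted p = 0.0100). With 1 library left out, Nlrc4 kept its call in 4 of 6 fits and Aim2 and Pycard in 2 of 6. Nlrp1a and Nlrp10 kept theirs in 1 of 6 (adjusted p up to 0.0999 and 0.135). The caspase-1 gene Casp1 (0.51, adjusted p = 0.0949) and Nlrp3 (-0.41, adjusted p = 0.234) did not pass; both were named after their values were seen.

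Of the protease genes in this list, 2 were higher and 2 were lower. Ctss, the cathepsin S gene, was higher (0.91, adjusted p = 0.0298), as was the mast cell chymase gene Cma1 (0.79, adjusted p = 0.00365). The epidermal kallikrein gene Klk13 was lower, at 63.4, 80.6 and 80.9 TPM against 225, 195 and 169 TPM (-1.39, adjusted p = 0.00365), and so was Klk7 (-0.49, adjusted p = 0.0419). P2rx7, Cma1 and Klk13 were called without each library in turn, while Ctss and Klk7 each kept their call in 1 of 6 such fits (adjusted p up to 0.103 and 0.141). The count of higher genes was 2 without anti-OSM replicate 2 or 3, 3 without anti-Ly6G replicate 1, 4 when either anti-OSM replicate 1 or anti-Ly6G replicate 2 was left out, and 13 without anti-Ly6G replicate 3. Of 12 mast cell markers, Cma1 among them, 5 were higher and 0 lower, with sums of 1037 to 1183 TPM against 603 to 826. The share of them called higher was 41.7%, against 5.81% of all tested genes. The part of mast cells, macrophages and dendritic cells in the count of higher inflammasome and protease genes was not tested.

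Of 26 tested MyD88 and NF-κB pathway genes, which carry the signal of these receptors, 1 was higher, 0 were lower and 25 did not pass (median log2 fold change 0.09). The share called higher was 3.85%, against 5.81% of all tested genes. By scaled counts the groups did not overlap for 11 of the 26 with anti-OSM above and for 1 with anti-OSM below, against 17.7% and 17.3% of all tested genes. The higher gene was Tifa, a TRAF6-binding adaptor, at 14.64, 13.44 and 13.998 TPM against 8.20, 7.78 and 10.5 TPM (0.63, adjusted p = 0.0344). It was called without anti-Ly6G replicate 3 and lost without any other single library (adjusted p up to 0.119). Peli2 (0.36, adjusted p = 0.0641), Mapk14 (0.19, adjusted p = 0.0713) and Relb (0.27, adjusted p = 0.0924) did not pass.

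Genes that IL-1 or IL-36 can induce in skin cells, most of which answer to other signals too, were called lower where they were called. Of 37 tested, 0 were higher, 7 were lower and 30 did not pass (median log2 fold change -0.36). The share called lower was 18.9%, against 6.27% of all tested genes. The 7 were Ptgs2 (-2.73) and Ptges (-0.57), enzymes of prostaglandin synthesis, the cytokine genes Il24 (-2.99) and Tslp (-2.19), the collagenase gene Mmp13 (-2.74), and the chemokine genes Cxcl3 (-1.25) and Ccl20 (-1.37). Ptges was at 93.1, 107 and 97.9 TPM with anti-OSM and at 149, 161 and 140 TPM with anti-Ly6G (adjusted p = 0.00732). Ccl20, the ligand of CCR6, was at 5.61, 6.94 and 7.39 TPM against 26.5, 11.7 and 13.96 TPM (adjusted p = 0.0380).

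The neutrophil chemokine gene Cxcl1 did not pass and was at 5.95, 4.31 and 21.9 TPM with anti-OSM and at 44.7, 12.8 and 22.9 TPM with anti-Ly6G (-1.30, adjusted p = 0.350). Nfkbia (-0.07) and Nfkbiz (0.06), feedback genes of NF-κB, did not pass either; these 3 were named after their values were seen. Without each library 5 to 10 of the 37 were lower and 0 higher, except that 1 was higher and 7 lower without anti-Ly6G replicate 3, with Il24, Tslp, Ptgs2, Ptges and Mmp13 called every time. Ccl20 lost its call without each anti-OSM library (adjusted p up to 0.120) and Cxcl3 when anti-OSM replicate 1, anti-OSM replicate 2 or anti-Ly6G replicate 1 was absent (up to 0.0610). The stressed keratinocyte sums given above moved in the same direction, and their part was not tested.

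**Figure D4:**
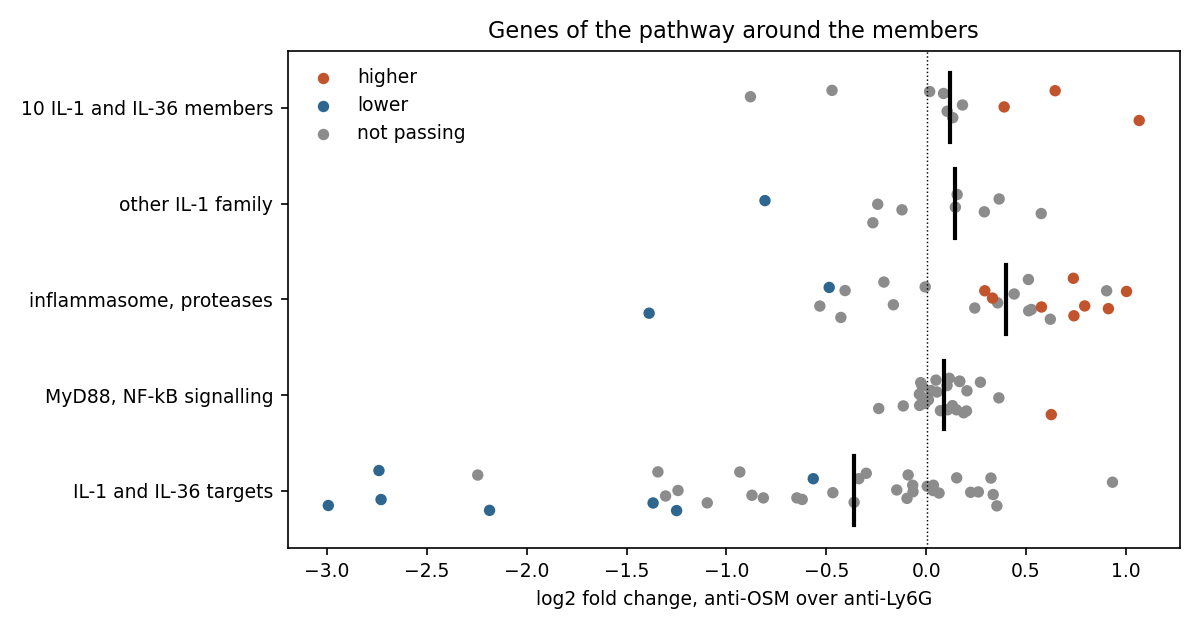
Log2 fold change of anti-OSM over anti-Ly6G (horizontal axis) of each tested gene in the 10-gene set and in 4 lists around it; orange marks genes called higher, blue called lower and grey not passing, black bars are list medians and the dotted line is the median of all tested genes (0.0068). The inflammasome and protease list has a median of 0.40 and the target list one of -0.36.

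The genes whose scaled log2 counts ran most alike to each of the 10 over the 6 libraries were sought among 12237 genes with a mean of at least 5 CPM (counts scaled to a common total). For Il18 these included Atp6v1d (Pearson r = 0.998) and Ppfia4 (0.997), both called higher with anti-OSM. For Il36a they were Crbn (0.990), Fggy (0.989) and Zfp729a (0.988), and for Il36rn Crebl2 (0.994), Tcp11l2 (0.991) and Rab7 (0.988). For Il1b they were Mylpf (0.991), Piga (0.989) and Fgf1 (0.983), and for Il1a Bnip1 (0.9945), Sgo1 (0.993) and Pfkfb4 (0.991). The nearest genes were Ccr4 (0.987), Trim26 (0.985) and Phf19 (0.984) for Il1rn, and Nfasc (0.990), Lyn (0.985) and Arpc4 (0.983) for Il1r1. They were Ccnd2 (0.994), Cgnl1 (0.986) and Scarf2 (0.981) for Il1r2, Cdkn2aipnl (0.991), Sox4 (0.990) and Mov10 (0.986) for Il36g, and included Ciao1 (0.991) and Ankrd22 (0.977) for Il1rl2. Among the 10 themselves the closest pairs were Il36a with Il36rn (r = 0.953) and Il36rn with Il18 (0.931), and the most opposed was Il1b with Il1r2 (-0.881). These values describe 6 libraries that share the difference between groups. With 12237 candidates ranked over 6 libraries, some genes reach a high r through the ranking alone. Whether any match exceeds that was not tested.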

How the data were processed

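The table used here holds the 6 antibody libraries, 3 per group, with columns assigned by library name. Per the file headers, each gene has values of 3 kinds in each library: read counts, FPKM and TPM. The counts were deposited as whole numbers. FPKM and TPM values were made by the authors, and TPM summed to 1000000 in each library. The submitters' processing notes name, among other tools and without roles, edgeR 3.40.2, StringTie 2.1.3b, HISAT2 2.1.0 and Trimmomatic 0.38, with mm10 among the builds. The sources used here do not give how reads were assigned to genes.

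Counts of all genes were fitted with edgeR 4.0.16 in R 4.3.3 (filterByExpr, TMM scaling, robust quasi-likelihood F-tests, 2-sided, Benjamini-Hochberg adjustment over 19915 genes, threshold 0.05), with no covariate. Standard errors and 95% intervals were derived from the F statistic. TPM served for levels and FPKM as an alternative unit. The fit was tested on simulated data. Since no label says that each replicate was its own mouse, a p-value here reflects only how far libraries varied, which may be technical. Replicates varied more than counting noise (chi-square per gene of at least 26.2), and none was taken as a duplicate.

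The 10 genes, the lists around them and the naming rule were chosen with earlier results of these data known. The rule names all 10, the called genes and the 4 with the smallest p of each pathway list, and the 3 genes most alike to each of the 10, of which some are not reported here. Alternatives were other scalings, DESeq2 1.42.0, limma 3.58.1 (voom, and on log2(TPM + 1) and log2(TPM + 0.1)), other filters, a non-robust fit, a replicate block and leaving out each library. No set test was run.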

Additional observations from a re-analysis of the deposited data

How the results depend on the processing

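Leaving out 1 library moved the counts of called genes over the whole table to between 240 and 1545 higher and between 420 and 1447 lower, from 1157 and 1249 with all 6. Among the 10 genes, 1 to 3 were higher and 0 lower in those fits. Among the 4 pathway lists together, 2 to 16 were higher and 6 to 13 lower, from 9 and 10. The fits with 5 libraries have fewer samples by construction. Limma on log2(TPM + 1) called 735 genes higher and on log2(TPM + 0.1) 732. DESeq2 called 1 of the 10 lower (Il1a) and 15 pathway genes higher, and the cause was not tested.

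Same-numbered libraries of the 2 groups deviated together only weakly (r = 0.0116, 0.0375 and 0.124 for replicates 1, 2 and 3), so the numbers were not taken to pair them. With a replicate block, 1 of the 10 was lower (Il1b, -0.93, adjusted p = 0.0140) and 15 pathway genes were higher.

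Over the fits with 1 library left out the log2 fold change was -0.0040 to 0.22 for Il36g and -0.058 to 0.082 for Il1rl2. Signs near 0 flipped for Il36g without anti-OSM replicate 3 (-0.0040), and for Il1rl2 without anti-OSM replicate 3 (-0.058), without anti-Ly6G replicate 2 (-0.0070) and on the log2(TPM + 1) and log2(TPM + 0.1) scales (-0.011 each). Il36a, Il36rn and Il18 passed under all 11 settings that kept 6 libraries. Il36rn did so narrowly, with an adjusted p of up to 0.0495 (limma on log2(TPM + 1)). The highest adjusted p was 0.0387 for Il36a (limma-voom) and 0.0113 for Il18 (non-robust edgeR fit). The log2 difference between group means of each gene's level moved by less than 1 SD with FPKM or scaled counts in place of TPM. So did the log2 difference between groups of the 3 ratios with raw counts. Leaving out 1 library of 3 can hardly move a mean by 1 SD, so those values are given as ranges. The log2 difference was 0.64 to 1.27 for Il1rn over Il1a plus Il1b (0.90 with all 6 libraries). It was -0.033 to 0.12 for Il36rn over Il36a plus Il36g (0.055) and -0.22 to 0.16 for Il1r2 over Il1r1 (-0.046). The sign thus changed for the latter 2 ratios. The levels and ratios themselves depend on the unit, since counts are not scaled for length.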
